A study of Homo sapiens with 2 samples.

Results

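Genes of the oxidative phosphorylation (OXPHOS) machinery were followed in RNA that was recovered with QKI, an RNA-binding protein. Probe sets were taken if their 1 gene symbol began with NDUFA, NDUFB, NDUFC, NDUFS or NDUFV (complex I), was SDHA to SDHD (complex II), or began with UQCR (complex III), COX4 to COX8 (complex IV) or ATP5 (complex V). This choice used names and no measured value. It gave 91 of 18132 genes, read by 207 of the 44988 probe sets with 1 symbol. Complex I held 36 subunits, complex II 3 genes, complex III 8, complex IV 17 and complex V 19. Another 8, the NDUFAF genes, encode assembly factors of complex I. Of the 91 genes, 73 encode structural subunits of most tissues, 6 encode complex IV isoforms of other tissues, and 4 carry a matching name without being such a subunit. Another 12 probe sets named several genes, 1 of them a match, and were left out. The 13 subunits encoded by mitochondrial DNA were not analysed here, so the values cover part of each complex.

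The cells were SW480, a human colorectal cancer cell line, transfected with 100 pmol of siRNA and collected at 48 h. In 1 sample the siRNA was a negative control (siNC), and in the other it targeted NONHSAT136151, a long noncoding RNA (siLnc). Both lysates were incubated with an anti-QKI antibody, and the recovered RNA was hybridised to PrimeView arrays, whose probe sets each read a stretch of an mRNA. Each condition had 1 array, so no difference below has a replicate check and no p-value is given. The study lists the siRNA letters shown here, since they define the contrast, with the TT overhang in capitals.
si-NC: ttcttacacaatagccagg
si-NON-2: ttcttacacaatagccagg
si-NON-1: uaggcaugguuagcguggucggaauTT
As listed, si-NON-2 and si-NC have the same 19 letters. The labels and methods do not say which si-NON the siLnc array used.

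In the inner mitochondrial membrane, complexes I and II pass electrons from NADH and succinate to ubiquinone. Complex III passes them on to cytochrome c and complex IV to oxygen, while complexes I, III and IV pump protons out of the matrix. Complex V, the ATP synthase, lets protons flow back through a rotating ring and makes ATP in its F1 head. Most subunits are encoded in the nucleus, and their promoters are known for sites of nuclear respiratory factor 1 (NRF1) and of ETS family factors such as GABP.

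Promoters in RefSeq (GRCh38.p14), from 250 bases before to 50 after a gene start, were found for 75 of the 91 genes in 93 windows. The NRF1 core GCATGCGC stood on either strand in 17.2% of these windows and in 3.05% of all 35116 windows. The ETS core CCGGAAG stood in 25.8% and 10.3%. The windows of ATP5F1C (chr10:7787927-7788226, plus strand) and SDHD (chr11:112086623-112086922, plus strand) are shown because both hold the NRF1 core while the mRNAs differed in opposite directions between the arrays. Capitals mark the motifs as matched on either strand, and in both windows a match on one strand overlaps a match on the other.
ATP5F1C: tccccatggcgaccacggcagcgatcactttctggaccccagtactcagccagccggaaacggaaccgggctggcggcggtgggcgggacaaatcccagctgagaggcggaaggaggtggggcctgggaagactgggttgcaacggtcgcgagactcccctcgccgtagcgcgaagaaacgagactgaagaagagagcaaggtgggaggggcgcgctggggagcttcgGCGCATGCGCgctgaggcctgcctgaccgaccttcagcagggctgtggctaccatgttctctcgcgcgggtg
SDHD: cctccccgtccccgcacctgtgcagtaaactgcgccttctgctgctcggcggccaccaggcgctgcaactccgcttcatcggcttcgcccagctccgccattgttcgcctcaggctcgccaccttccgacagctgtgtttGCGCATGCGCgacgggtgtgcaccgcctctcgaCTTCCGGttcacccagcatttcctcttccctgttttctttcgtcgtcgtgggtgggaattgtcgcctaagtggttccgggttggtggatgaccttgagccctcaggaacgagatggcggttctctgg
The 15 genes with the NRF1 core had a median log2 difference between siLnc and siNC of 0.22, and the other genes with a window 0.20. For the ETS core these medians were 0.13 in 22 genes and 0.22 in the others. Each match is a description of letters, and binding of these factors was not measured.

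Most OXPHOS mRNAs differed little between the 2 precipitates, and more of them lay above 0 than below. The log2 difference, siLnc minus siNC as the mean over the probe sets of a gene, had a median of 0.17 over the 91 genes and ranged from -0.48 (SDHD) to 0.90 (ATP5F1A). Of these genes, 69 lay above 0 and 20 below, and among the 73 structural subunits 58 lay above and 15 below. Over all 18132 genes the median was -0.06 and 39.2% lay above 0. No OXPHOS gene reached a log2 difference of 1 (2-fold) in either direction, against 0.651% of all genes that were higher by 2-fold or more and 0.121% that were lower by as much. At 1.5-fold, 5 genes were higher and none was lower, against 4.26% and 1.75% of all genes. These 5 were ATP5F1A, ATP5F1B and ATP5F1C of the F1 head, NDUFS1 of complex I and the assembly factor NDUFAF1. By single probe sets, 2 of 207 were past 2-fold on the higher side, both of ATP5F1A, against 1.53% of all probe sets with 1 symbol.

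**Figure D1:**
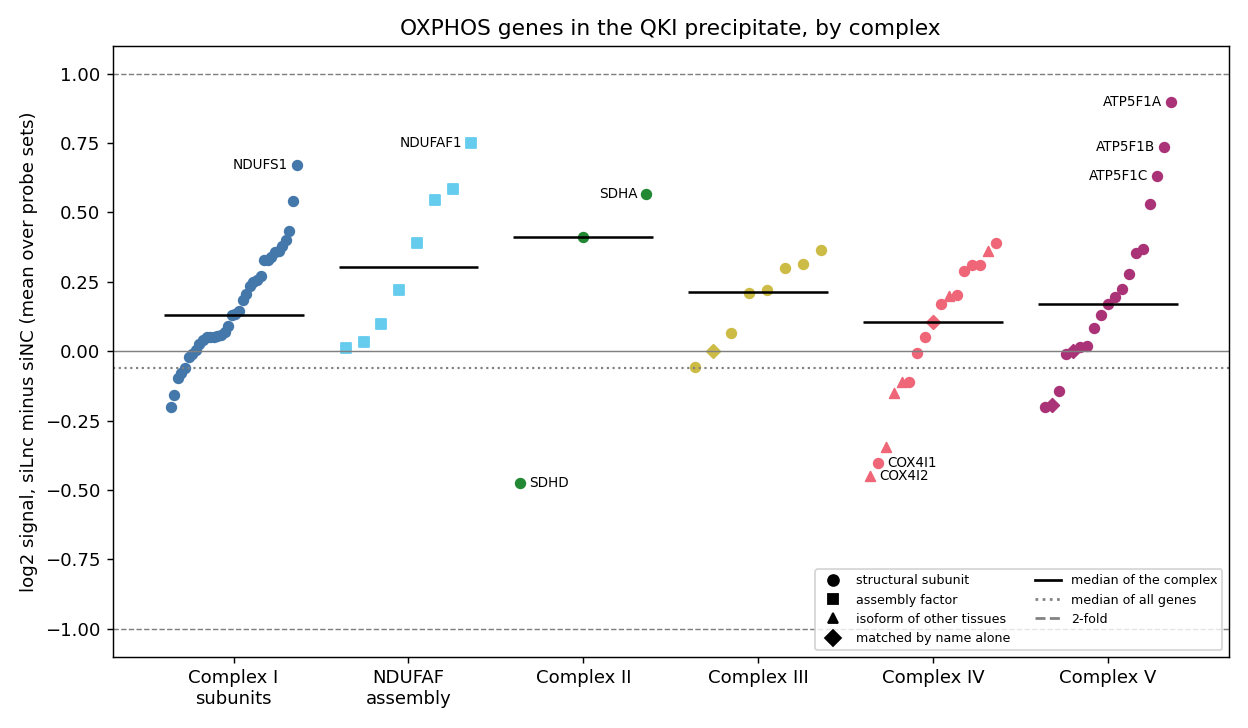
Log2 signal of siLnc minus siNC for each of the 91 genes (mean over probe sets), grouped by complex, with black bars at group medians, a dotted line at the median of all genes (-0.06) and dashed lines at 2-fold. All points lie between the dashed lines, with ATP5F1A (0.90) highest and SDHD (-0.48) lowest.

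Bright genes as a whole tended to lie above 0 on these arrays, and OXPHOS genes are bright. On the log2 scale their median signal was 8.05 for siNC and 8.29 for siLnc, beside 3.43 and 3.38 for all genes. Among 48 OXPHOS genes with a mean signal of 8 or more, 38 lay above 0 with a median difference of 0.15. Of all 785 genes in that range 61.3% lay above 0, with a median of 0.07. Between signals of 4 and 6 the median difference was 0.23 in 14 OXPHOS genes and 0.06 in all genes, and between 6 and 8 it was 0.22 in 22 and 0.14 in all. After cyclic loess and after quantile normalization between the arrays, 56 of the 91 genes lay above 0, with medians of 0.08 and 0.09. Over all genes, 46.3% and 42.6% lay above 0 in that order, with medians of -0.02 and -0.04. The shift of the OXPHOS set thus depended in size on how the arrays were scaled.

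**Figure D2:**
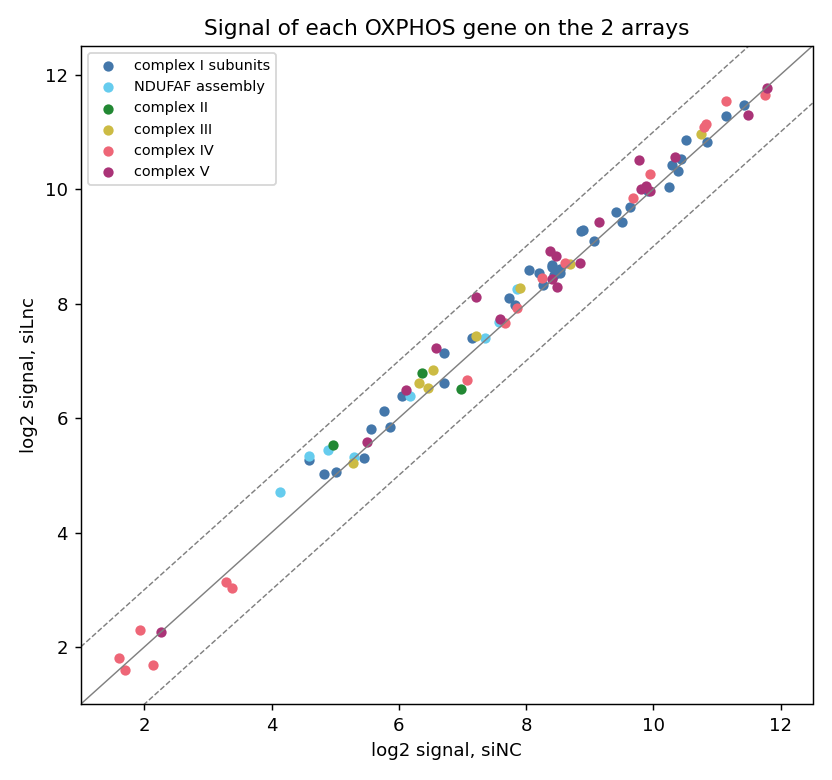
Log2 signal of each OXPHOS gene in siNC (horizontal) and siLnc (vertical), coloured by complex, with a solid line at equality and dashed lines at 2-fold. The genes run close to the line of equality over the whole range, and the 91 points stay within the dashed lines.

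The arrays themselves set some limits. Over 49292 probe sets the siNC array had a median of 3.32 on the log2 scale and the siLnc array 3.29, and 744 probe sets were higher by 2-fold or more in siLnc and 91 lower. The 18 probe sets of bacterial hybridization controls were all lower in siLnc, by -1.30 to -0.20. Of 26 gland and blood genes, 12 were at least 2-fold higher in siLnc, against 0.651% of all genes. The summed signal of the 26 genes on the linear scale was 264 in siNC and 2446 in siLnc. This list was drawn up with the values of these arrays known, so its count and sum are no test. The part of these genes in the OXPHOS values was not tested. The epithelial markers EPCAM, KRT8, KRT18 and KRT19 had log2 signals from 8.65 to 11.62 in siNC, and CDX2 had 7.17 in siNC and 6.22 in siLnc. The other 4 epithelial markers, CDH1, VIL1, CEACAM5 and LGALS4, had 3.84 or less. The 6 probe sets of QKI mRNA disagreed, with log2 differences from -1.26 to 0.00 around a mean of -0.57. NONHSAT136151 itself was not analysed here, so the knockdown was not checked. Input RNA was not analysed either, so binding to QKI and the total amount of an mRNA cannot be told apart. A difference in the number of cells and one in RNA per cell cannot be told apart either. The study's methods also name a precipitate with control IgG, but neither array is of one. Recovery of an mRNA without QKI was therefore not measured.

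Within complex V the 3 large subunits of the F1 head had the highest means over probe sets. ATP5F1B, the catalytic beta subunit, read 9.78 on the log2 scale in siNC against 10.52 in siLnc, a difference of 0.74. Its 2 probe sets were close together, at 0.68 and 0.79. ATP5F1C, the gamma subunit that forms the rotating shaft, had 6.59 and 7.22, a difference of 0.63 with all 3 probe sets between 0.51 and 0.87. ATP5F1A, the alpha subunit that alternates with beta around the shaft, had 7.22 and 8.11, a difference of 0.90. Its 4 probe sets disagreed in size. The brightest went from 9.45 to 9.62, a difference of 0.17, the next had 0.64, and the 2 dimmer ones had 1.33 and 1.45. Both the order among the 3 genes and their place above the other subunits therefore rest on which probe sets are read. By the brightest probe set alone ATP5F1B (0.68) was highest, ATP5F1C had 0.51 beside 0.53 for ATP5MC1 of the c ring, and ATP5F1A at 0.17 lay below several other subunits. All 3 stayed above 0 after cyclic loess, at 0.78 for ATP5F1A, 0.63 for ATP5F1B and 0.49 for ATP5F1C. Without probe sets that may read several transcripts (IDs ending in _x_at or _s_at), ATP5F1A had 1.04 and was past 2-fold.

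The small partners of these subunits in the same head and stalk did not share the difference. ATP5F1D, the delta subunit of the central stalk, had 8.41 in siNC and 8.43 in siLnc, with all 3 probe sets at 0.01 or 0.02. ATP5F1E, the epsilon subunit, had 11.78 and 11.77. Over all 5 genes of the F1 head and central stalk the median was 0.63, from -0.01 to 0.90. For the 14 structural subunits other than alpha, beta and gamma the median was 0.15, against 0.74 for those 3. After cyclic loess these 2 medians were 0.09 and 0.63. Alpha, beta and gamma have the highest means of complex V, so a gap in this direction was fixed by setting them apart.

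The c ring, which turns as protons pass, is built from 1 mature protein encoded by 3 genes. ATP5MC1 had 8.38 in siNC and 8.91 in siLnc (0.53), ATP5MC2 9.15 and 9.43 (0.28), and ATP5MC3 a mean difference of 0.36. The 4 probe sets of ATP5MC3 ran from 0.07, in one at 3.05 in siNC, to 0.59. All 3 genes thus lay above 0. In the peripheral stalk, which holds the head still, ATP5PB had 0.37, ATP5PO 0.22, ATP5PF 0.17 and ATP5PD 0.02. Below 0 were ATP5ME (11.49 and 11.29, -0.20 in both probe sets) and ATP5MG (8.85 and 8.71, -0.14), the membrane subunits e and g that join ATP synthase dimers. ATP5IF1, which inhibits ATP hydrolysis by the enzyme and is not a subunit, had 8.49 and 8.29, with all 4 probe sets below 0, from -0.40 to -0.09. The other membrane subunits ATP5MF, ATP5MJ and ATP5MK lay between 0.08 and 0.20.

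**Figure D3:**
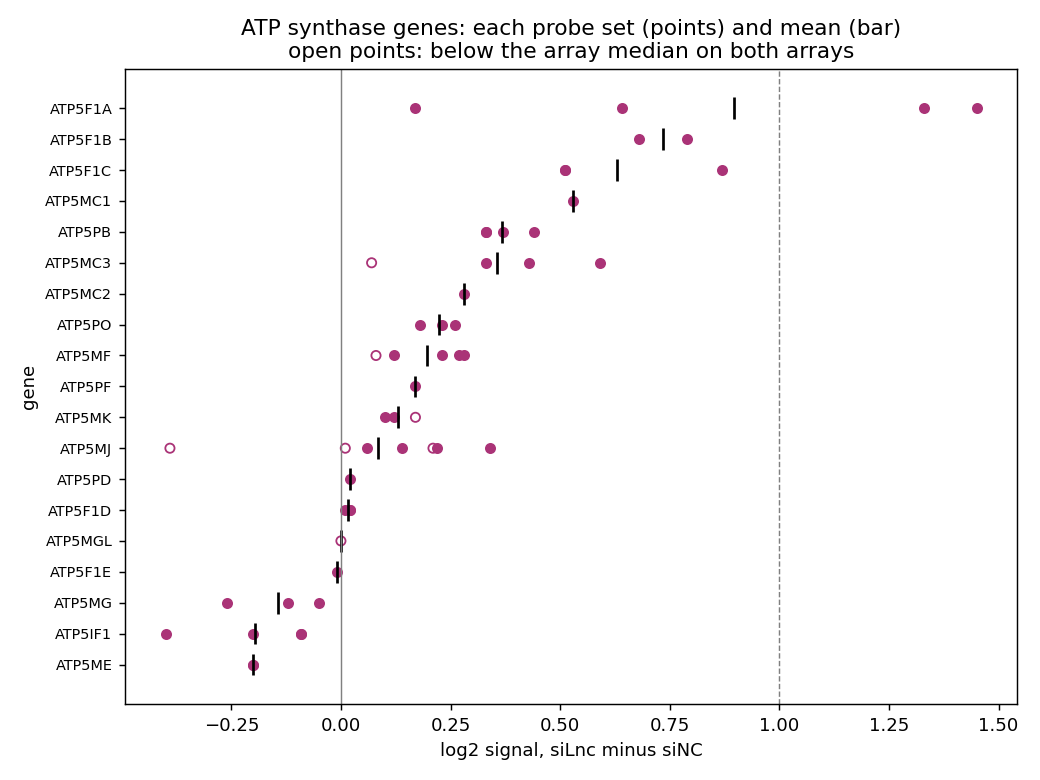
Log2 difference between siLnc and siNC for each probe set of the 19 complex V genes (filled points, open where the probe set lay below the array median on both arrays), with a bar at the gene mean and a dashed line at 2-fold. ATP5F1A, ATP5F1B and ATP5F1C head the order, the ATP5F1A points are spread from 0.17 to 1.45, and ATP5ME, ATP5IF1 and ATP5MG lie below 0.

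In complex I the core subunits had a higher median than the accessory ones, though NDUFS8 of the core had a mean below 0. The 6 core subunits, which hold the flavin, the iron-sulfur clusters and the quinone site, had a median of 0.30, and the 30 accessory subunits, which surround and steady them, one of 0.08. The median siNC signal was 6.24 for the core and 8.53 for the accessory subunits. Over all genes the median difference was 0.14 at mean signals of 6 to 8 and 0.08 at 8 to 10. The part of signal in the gap was not tested. NDUFS1, the largest core subunit with several iron-sulfur clusters, had 4.59 in siNC and 5.26 in siLnc. All 5 of its probe sets lay above 0, from 0.53 to 0.88, for a mean of 0.67. NDUFV2, an iron-sulfur subunit of the NADH-oxidising module, had 8.86 and 9.26 (0.40). NDUFS7, which carries the last cluster before ubiquinone, had 5.77 and 6.12 (0.36), with all 4 probe sets between 0.31 and 0.40. NDUFV1, which binds NADH and flavin, had 7.15 and 7.40 (0.25), and so lay closer to 0. NDUFS3 had a mean of 0.21, made of 0.41 in a probe set at 8.34 in siNC and 0.00 in one at 1.30. NDUFS8 had a mean of -0.10, yet its brighter probe set had 9.09 in siNC and 9.31 in siLnc, a difference of 0.22, while the dimmer one, at 4.32 in siNC, had -0.41. No direction is read for NDUFS8. In their brightest probe sets all 6 core subunits lay above 0, and so did 25 of the 30 accessory subunits and 39.3% of all genes.

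Among the 30 accessory subunits 24 lay above 0 and 6 below, and 14 lay within 0.10 of 0. The highest was NDUFA9, a subunit near the quinone site, with 8.05 in siNC and 8.59 in siLnc (0.54, 1 probe set). NDUFV3, next to the flavin subunit, had 6.71 and 7.14 (0.43), with its 3 probe sets at 0.40, 0.42 and 0.48. The lowest was NDUFB10, of the membrane arm, with 10.24 and 10.04 (-0.20, 1 probe set). NDUFA7 had 9.50 and 9.42 (-0.08). NDUFA13, also known as GRIM-19, had a mean of -0.16, but its 2 bright probe sets had 0.07 and 0.17, and the other 3, at 3.21 or less in siNC, were negative. NDUFC2 was the one gene with probe sets on both sides of 0 at least 1 apart, with -0.63 and 0.10 in the dimmer ones and 0.50 in the brightest (9.33 and 9.83). No direction is read for NDUFA13 and NDUFC2. The 11 NDUFB subunits of the membrane arm had a median of 0.07, with 10 above 0, and the 13 NDUFA and NDUFAB1 genes one of 0.13. After cyclic loess 15 of the 30 accessory subunits lay above 0, with a median of 0.01, and after quantile normalization 16 did, so their split around 0 is not kept. The median of the core subunits was 0.22 after cyclic loess.

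The 8 NDUFAF genes, whose products help to assemble complex I and are not part of it, all lay above 0, with a median of 0.31 that was 0.17 after cyclic loess and 0.15 after quantile normalization. NDUFAF1 had 4.59 in siNC and 5.34 in siLnc, with probe sets at 0.71 and 0.79. NDUFAF4 had 4.13 and 4.71, and its 2 brighter probe sets differed by 0.78 and 0.85. NDUFAF7, a methyltransferase, had 4.89 and 5.44, from 0.22 to 0.96 over 3 probe sets, and NDUFAF2 had 0.39. The other 4, NDUFAF5 (0.22), NDUFAF3 (0.10), NDUFAF8 (0.04) and NDUFAF6 (0.01), lay closer to 0. The last 3 lay below 0 after cyclic loess, at -0.04, -0.11 and -0.03, and also after quantile normalization.

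The 3 measured genes of complex II, succinate dehydrogenase, which also works in the citrate cycle, did not go together. SDHA, the flavin subunit that oxidises succinate, had 4.96 in siNC and 5.53 in siLnc. That mean of 0.57 joined 0.84 and 0.86 in 2 probe sets with 0.00 in another probe set, at 1.81 on both arrays. SDHC, a membrane anchor, had 6.37 and 6.78 (0.41), with 4 probe sets from 0.39 to 0.65 and one, at 3.70 on both arrays, of 0.00. SDHD, the other membrane anchor and the partner of SDHC, had the lowest mean over probe sets of the 91 genes, though not the lowest value by the brightest probe set (-0.41, beside -0.59 for COX4I1 and -0.56 for UQCRB). As a mean it had 6.98 in siNC and 6.50 in siLnc, a difference of -0.48. All 5 probe sets of SDHD were lower in siLnc, from -0.72 to -0.29, and 2 of them held identical values. Most of these probe sets may read several transcripts. Without such probe sets SDHA and SDHC were each left with the one at 0.00 and SDHD had none, so the split between these subunits rests on shared probe sets.

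The 8 genes matched to complex III by name had a median of 0.22, with 6 above 0. That median was 0.12 after cyclic loess. UQCRFS1, whose name also begins with UQCR, had no probe set with 1 symbol and is not among them. The core proteins UQCRC1 (6.32 in siNC and 6.62 in siLnc) and UQCRC2 (6.53 and 6.85) were higher by 0.30 and 0.32. UQCRH, the hinge protein that contacts cytochrome c1, had 7.90 and 8.26, and its brighter probe set differed by 0.19. UQCR11 had 0.22, with 0.47 in its brighter probe set, UQCR10 had 0.21 and UQCRQ, which lies beside the quinone site, 0.07. UQCRB, a small subunit at the quinone site, had a mean of -0.06 that hid a split. Its brightest probe set had 8.93 in siNC and 8.37 in siLnc (-0.56), while 2 at 4.70 and 4.69 in siNC had 0.34 and 0.35. No direction is read for UQCRB. UQCRHL, a copy of UQCRH in the genome, had 8.69 on both arrays, and probes may not tell the copy from UQCRH. CYC1, which encodes cytochrome c1 of the same complex and falls outside the name rule, had 7.82 in siNC and 8.37 in siLnc, with its 3 probe sets between 0.54 and 0.57. CYCS, the soluble cytochrome c that links complexes III and IV, had 8.21 and 8.33 (0.13).

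**Figure D4:**
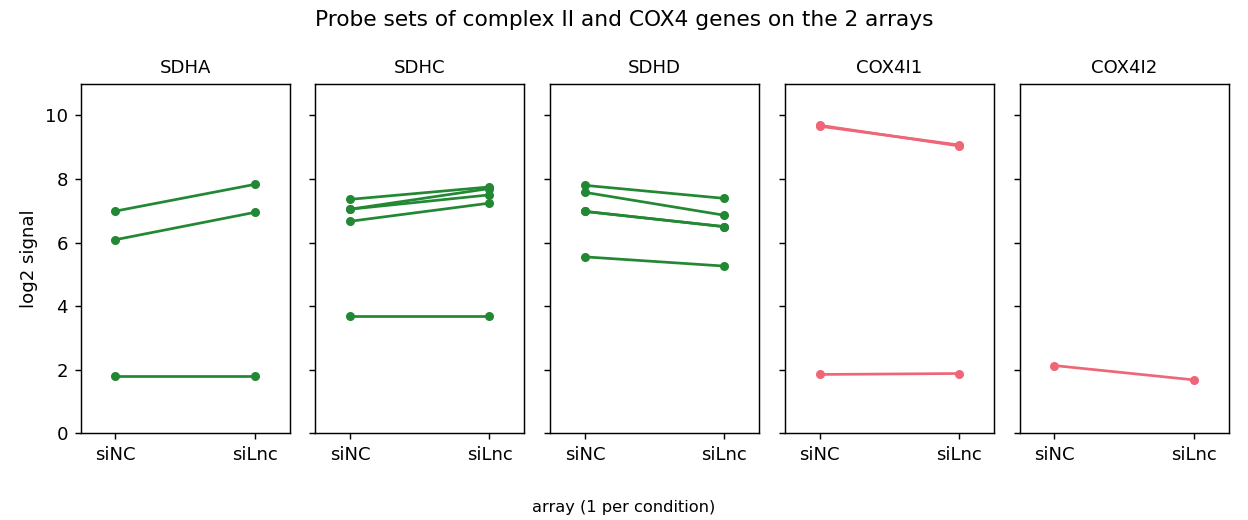
Log2 signal of each probe set of SDHA, SDHC, SDHD, COX4I1 and COX4I2 on the siNC and the siLnc array, with a line joining the values of a probe set. The brighter SDHA and SDHC lines go up, all 5 SDHD lines and the 2 bright COX4I1 lines go down, and the lowest line of SDHA, of SDHC and of COX4I1 stays nearly level.

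In complex IV, cytochrome c oxidase, the 10 subunits of most tissues had a median of 0.19, with 7 above 0, and COX4I1 had the lowest value among them. That median was 0.10 after cyclic loess and 0.11 after quantile normalization. COX4I1, a regulatory subunit that binds adenine nucleotides, had 7.07 in siNC and 6.66 in siLnc as a mean. Its 2 bright probe sets had 9.69 in siNC and 9.04 in siLnc (-0.65) and 9.66 and 9.07 (-0.59), and the remaining one, at 1.85 and 1.88, was dim. Both bright probe sets may read several transcripts, and without them the value of COX4I1 was 0.03. The next lowest common subunits were COX7C (11.76 and 11.65, -0.11) and COX6A1, with a mean of -0.01 and 0.18 in its brighter probe set. The highest was COX6B1, on the side that faces cytochrome c, with 11.14 in siNC and 11.53 in siLnc (0.39). COX8A had 10.82 and 11.14, and COX5B, a zinc-binding subunit, 9.95 and 10.26, each higher by 0.31. COX7B had 0.29, COX7A2 0.20, COX5A, which sits next to COX4, 0.17 and COX6C 0.05. COX7A2L, which joins complexes III and IV into supercomplexes, had 0.11.

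The 6 isoforms that other tissues use were COX4I2 (lung), COX6A2 and COX7A1 (heart and muscle), and COX6B2, COX7B2 and COX8C (testis). Of these, 5 had no probe set at or above the array median on either array, and so no direction is read from them. Their log2 signals in siNC and siLnc were 2.13 and 1.68 for COX4I2, 3.28 and 3.13 for COX6A2, and 1.70 and 1.59 for COX7A1. COX7B2 had 1.93 and 2.29, and COX8C 1.61 and 1.81. For scale, 25 genes known from cells that the culture should lack had 62 probe sets with a median of 2.04 in siNC, and 60 of the 62 lay below 5. COX6B2, with 3.38 and 3.03, had 3 probe sets between -0.51 and -0.10, all within 0.40 of the array median in siNC. ATP5MGL, a copy of the ATP5MG gene, had 2.27 on both arrays. The partner isoforms of most tissues, COX4I1, COX6A1, COX6B1, COX7A2, COX7B and COX8A, each had a probe set at 9.69 or more in siNC.

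Probe sets of 1 gene agreed in direction for most of the genes with 2 or more of them. Of 56 genes read by 2 or more probe sets, 29 had all of them above 0 and 5 had all below, and 16 had probe sets on both sides. The same shares over all genes were not counted, so this agreement is not set against that of the arrays as a whole. Of the 207 probe sets 92 may read several transcripts, and in 3 genes a pair held identical values. Probe sets of 1 gene are thus not always separate readings. Several of the means include dim probe sets at or near 0. Over the 176 probe sets of the set that reached the median of an array, 85 genes could be read, 68 of them above 0 and 16 below, with a median of 0.19. Over all genes read in the same way the median was 0.04, and 52.7% lay above 0. None of the 91 genes reached 2-fold in its brightest probe set.

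Other genes of the machinery gave values of similar size. Of 44 assembly factors of complexes I to V outside the name rule, 42 were measured. Of these, 35 lay above 0, none reached 2-fold, and the median was 0.14. For scale in this paragraph, 55.6% of all genes lay above 0 at mean signals of 4 to 6. At 6 to 8 this share was 65.6%, and at 8 to 10 it was 62.3%. ACAD9, which helps to build complex I, had 4.14 in siNC and 4.88 in siLnc (0.74), and TMEM126A 7.53 and 8.08 (0.55). SDHAF2, which helps to attach flavin to SDHA, had 7.66 and 8.12 (0.46), while SDHAF4, which also assists SDHA, had 5.17 and 4.85 (-0.32). For complex IV the 21 factors had a median of 0.08, from COA5 (-0.35) to SCO2 (0.40), a copper carrier. COX17, the chaperone that brings copper to SCO proteins, had 11.07 and 10.85 (-0.22). The median of 75 mitochondrial ribosomal protein genes, whose products translate the subunits encoded by mitochondrial DNA, was 0.30, with 64 above 0 and 1 at least 2-fold higher, and 0.19 with 56 above 0 after cyclic loess. That of 74 cytosolic ribosomal protein genes, which like OXPHOS genes are bright, was -0.04, with 33 above 0. With 1 array per condition these groups could not be tested against each other.

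**Figure D5:**
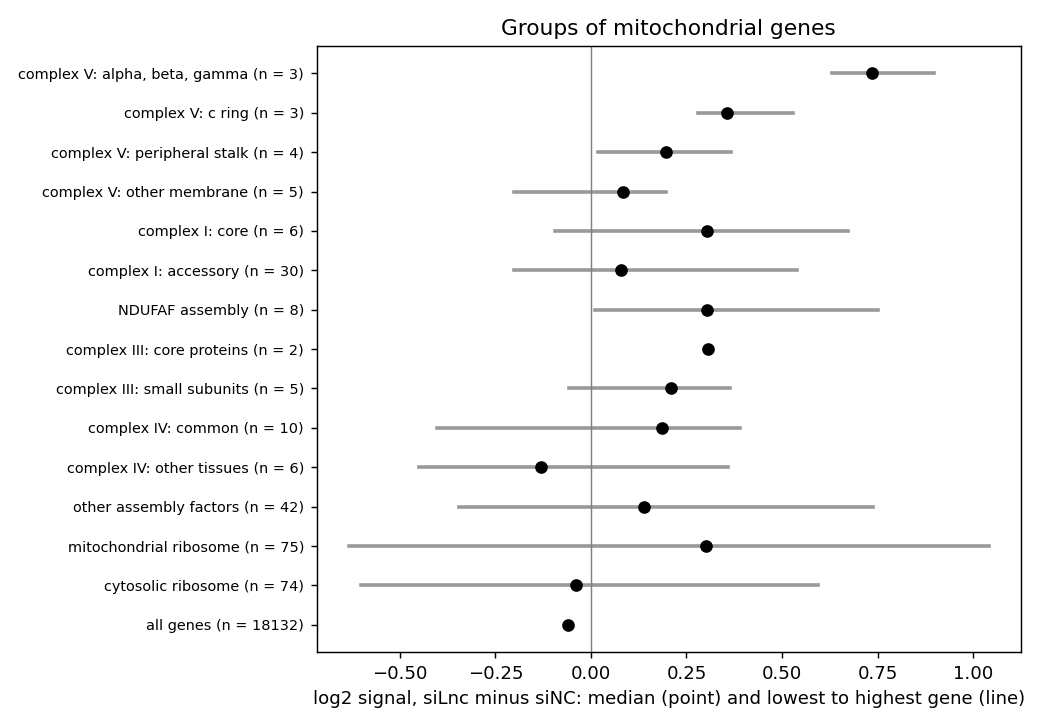
Median (point) and lowest to highest gene (line) of the log2 difference between siLnc and siNC for groups of OXPHOS genes and for comparison groups, with the number of genes in each (for all genes the median alone). The alpha, beta and gamma subunits of ATP synthase (0.74), which are the 3 highest genes of complex V, lie highest. The mitochondrial ribosome stands at 0.30 and the cytosolic ribosome at -0.04.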

How the data were processed

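RNA recovered with QKI from SW480 cells was measured on 2 PrimeView arrays, 1 of siNC and 1 of siLnc cells, grouped by the sample labels. Values were used as the authors deposited them, on a log2 scale. The submitters' processing notes give GCOS as the tool. How background was corrected and how probes were summarised and normalized is not stated in the sources used here. After 79 control probe sets were left out, 49292 remained, and those with 1 symbol in the platform annotation named the genes. All 91 symbols matched RefSeq by gene identifier.

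For each gene the log2 differences of its probe sets, siLnc minus siNC, were averaged and read against a threshold of 2-fold. A probe set was called dim if it lay below the median of its array on both arrays. No test was possible with 1 array per condition, and no depth applies to arrays, whose number limits the precision. The steps were tested on simulated data. The members, lists and alternatives were chosen with earlier results of these data known.

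By rule the text names any OXPHOS gene past 2-fold, the 4 highest and 4 lowest of complexes I, III, IV and V and of the NDUFAF genes, all of complex II, the nuclear core subunits of complex I, the alpha, beta, gamma and c subunits of ATP synthase, isoform pairs of complex IV, CYC1 and CYCS, and genes whose probe sets lie on both sides of 0 at least 1 apart. Other genes were named after their values were seen. The alternatives tried were median centring, quantile normalization or cyclic loess of the arrays, the brightest probe set, brighter probe sets only, omission of probe sets that may read several transcripts, structural subunits only, thresholds of 1.5-fold and 3-fold, and counts of probe sets. The arrays were renormalized with limma 3.58.1 (R 4.3.3). Medians and counts were taken with pandas 2.3.3, numpy 2.4.6 and scipy 1.17.1, and plots drawn with matplotlib 3.10.9, all under Python 3.11.15.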

Additional observations from a re-analysis of the deposited data

How the results depend on the processing

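No paired analysis was possible because there was 1 array per condition, and no sample could be left out. The medians of all OXPHOS genes and of each complex kept their sign, or stood at 0.00, under the alternatives run. The median of complex I subunits was 0.13 as reported and 0.046 after cyclic loess. The median of all 91 genes ran from 0.08 after cyclic loess to 0.20 after median centring. That of complex II was 0.00 without probe sets that may read several transcripts, where SDHA and SDHC had 1 probe set each and SDHD none. The count of genes at least 2-fold higher was 0 as reported, 1 without such shared probe sets (ATP5F1A), 5 at a threshold of 1.5-fold, and 2 when probe sets were counted. No alternative gave a gene at least 2-fold lower. Single genes were recomputed for the 54 OXPHOS genes that the naming rule picks, not for CYC1, CYCS or other genes in the text. Of these, 11 had the other sign in at least 1 alternative, and among them COX4I1 alone lay more than 0.20 from 0 as reported. Structural subunits alone gave no value for the NDUFAF factors, and an alternative that moves 1 subunit from complex I to complex IV was not run, since that gene was not analysed here.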

Other observations

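Of 14 regulators of mitochondrial gene expression, 13 were measured, 10 lay above 0 and 3 below, and none reached 2-fold. Their log2 differences ran from -0.32 to 0.91 with a median of 0.20. Of all genes with a mean signal of 4 to 6, where the median signal of this group lay, 55.6% lay above 0. TFB2M, which starts transcription of mitochondrial DNA, read 5.24 in siNC against 6.15 in siLnc on the log2 scale (0.91, 1 probe set). TFAM, which packages that DNA and aids its transcription, had 6.06 and 6.62, with 3 probe sets from 0.30 to 0.85. PPRC1, a coactivator of the PGC-1 family, had 5.12 and 5.63 (0.51). The other coactivators of this family lay below 0 at low signal, PPARGC1A with 1.64 and 1.45 (-0.19) and PPARGC1B with 2.90 and 2.58 (-0.32). ESRRA, a nuclear receptor that works with them, had 4.68 and 4.63, with probe sets at -0.22 and 0.13. In 3 OXPHOS genes, ATP5PB, NDUFB4 and SDHD, a pair of probe sets held identical values on both arrays, so these pairs count as 1 measurement each.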
